A study of Mus musculus with 82 samples.

Results

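Naive OT-I T cells that had met pGal-OVA were compared with naive OT-I T cells that had met plain OVA in 10 libraries, of 82 in the whole series, chosen by their labels alone. OT-I cells are CD8 T cells of a T cell receptor transgenic line, and all of them recognize the same peptide of ovalbumin. The 10 libraries are 5 of pGal-OVA (called pGal here; 3 in batch 1 and 2 in batch 2) and 5 of plain OVA (3 in batch 1 and 2 in batch 2), and 5 saline libraries in the same batches (3 and 2) serve as the level without antigen. All recipients were C57BL/6 mice, with no earlier immunization described: OT-I and OT-II cells were transferred together, the antigen or saline was given 1 day later, and the OT-I cells were sorted 4 days after that from pooled spleen and lymph nodes. Each library was made from 3 pooled mice, so the spread between libraries is a spread between pools and not between single animals. Plain OVA was given at 5 µg. The pGal-OVA, ovalbumin carrying a synthetic polymer of sugar units, is stated as 5 µg in one place and as the molar equivalent of that antigen in another, so a difference in the amount of antigen and one in its form cannot be told apart. "Batch" is the submitters' word, and the labels do not say what differed between the batches.

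A naive CD8 T cell that meets its antigen divides, turns on the transcription factor T-bet and the machinery for killing, and exchanges the receptors that keep it circulating through lymph nodes for integrins and chemokine receptors that lead it into tissue. Antigen taken up without inflammation can instead leave the cell deleted or unresponsive, often after a phase of division, and such cells can carry inhibitory receptors such as PD-1, CTLA-4 and LAG-3. Glycosylated antigens of the pGal kind are carried to the liver and are studied for inducing such tolerance, which makes the comparison with the same protein in its plain form the central one for naive cells.

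Total estimated counts, the depth behind each value, were 36.5 to 63.8 M (mega) in pGal libraries, 33.5 to 63.9 M in OVA libraries and 53.9 to 68.2 M in saline libraries. Depth differed with the treatment within each batch and in opposite directions: batch 1 pGal libraries had 58.1 to 63.8 M and batch 1 OVA libraries 33.5 to 34.3 M, while in batch 2 the pGal libraries had 47.3 and 36.5 M and the OVA libraries 63.9 and 60.2 M. With all libraries thinned to 33.5 M, an alternative chosen after seeing the data, the counts of called genes were 6 in batch 1, 17 in batch 2 and 75 for the difference between the batches, against 6, 28 and 65 at full depth. Values are given as CPM, counts scaled to a common library total of 1 M. Transcripts of the T cell receptor complex and of CD8 marked the libraries as CD8 T cells: Cd3e ranged over 982 to 1117 CPM in pGal libraries and 933 to 1097 CPM in OVA libraries, and Cd8a was at 944 to 1260 CPM after pGal and 762 to 1107 CPM after OVA. Transcripts of other cells stood out in a few libraries. Cd4 was at 195 CPM in batch 1 pGal 2 and 159 CPM in batch 1 OVA 1, against medians of 1.94 CPM over pGal libraries and 1.81 CPM over OVA libraries. The 16 B cell markers summed to 2197 CPM in batch 2 OVA 2 and 6787 CPM in batch 2 saline 1, against 225 to 495 CPM in the 5 pGal libraries. The 18 myeloid markers summed to 155 to 367 CPM in pGal libraries, 129 to 319 CPM in OVA libraries and 96.4 to 665 CPM in saline libraries. Of platelet and stromal markers, Pf4, Ppbp, Col3a1 and Cdh5 stayed under 1 CPM in all 15 libraries and Col1a1 reached 3.19 CPM, while Pecam1, which T cells also express, was at 127 to 211 CPM after pGal and 151 to 186 CPM after OVA. In bulk RNA of this kind, fewer cells of a type and less RNA per cell cannot be told apart.

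Over both batches no gene passed the test between pGal and OVA. Of 13816 genes tested with a batch term, 0 passed an adjusted p of 0.05, which is 0% (edgeR). An unadjusted p under 0.05 was found for 419 genes, with 190 higher and 229 lower after pGal. That is a smaller share of the genes tested than the 0.05 that such a cutoff would pass if no gene differed. DESeq2 called 1 gene, Cx3cr1, and limma voom called 0. The median 95% interval of the log2 difference reached 0.24 to either side among genes of 10 CPM or more.

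The 2 batches, which share no library, gave different results for pGal against OVA. Which libraries of a batch are pGal and which are OVA rests on the labels alone, since no transcript measured here identifies the antigen given, so an exchange of these labels in 1 batch could not be checked. It would turn the signs within that batch only. The difference between the batches and the comparison over both would then change in value, and not simply in sign. In batch 1, 6 genes fell after pGal relative to OVA and 0 rose (0.0434% and 0% of the genes tested). In batch 2, 6 genes rose and 22 fell (0.0434% and 0.159%, together 0.203%). The batch 2 calls were lost with limma voom (0 genes), and with only the pGal and OVA libraries of a batch in the fit 0 genes were called in either batch. The test of the difference itself, batch 2 minus batch 1, called 65 genes (0.470%), 25 of them above 0 (0.181%) and 40 below 0 (0.290%). All 65 had opposite signs in the 2 batches, which a choice of genes by the difference favours: the 25 were lower after pGal in batch 1 and higher in batch 2, and the 40 were the other way round. Of the 6 genes called in batch 1 all 6 were among the 65, and of the 28 called in batch 2 there were 23. The difference is made of the 2 batch contrasts of the same fit, so this overlap is favoured by construction. No gene (0) was called in both batches. Across all 13816 genes tested, the log2 differences of the batches had a Pearson correlation of -0.07 and a Spearman correlation of -0.24, and 60.8% of the genes differed in sign. Across the 8397 genes with a mean of 10 CPM or more, the correlations were -0.37 and -0.38, and 63.4% differed in sign. These correlations are a description across genes, which are not independent replicates and share the libraries and depths of their batch.

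**Figure D1:**
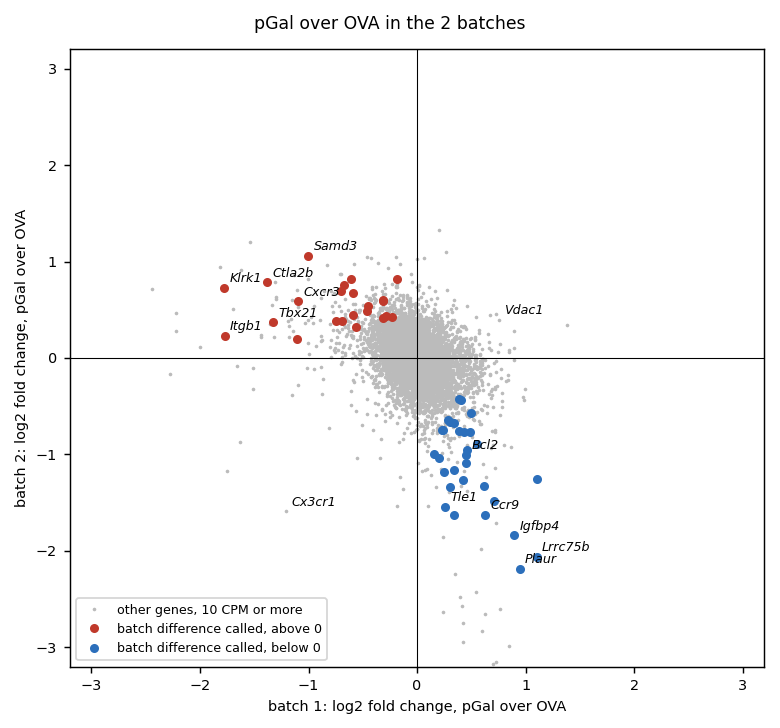
Log2 fold change of pGal over OVA in batch 1 (horizontal axis) against batch 2 (vertical axis) for 8397 genes of 10 CPM or more, each a point; 6 genes lie outside the axes. The 53 plotted genes called for the batch difference (red above 0, blue below 0), and so chosen by it, sit in the upper left and lower right, and Cx3cr1 and Vdac1 keep their sign in both batches.

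Setting each treatment beside its own batch's saline libraries shows where the groups lay. In batch 1, pGal differed from saline at 20 genes (0.145%), all of them higher, and OVA at 523 genes (3.79%). In batch 2, pGal differed from saline at 1827 genes (13.2%) and OVA at 540 genes (3.91%). Within a batch both comparisons use the same saline libraries. Without batch 2 OVA 2 and batch 2 saline 1, the libraries richest in B cell transcripts, the batch 2 counts were 1786 after pGal and 193 after OVA. With 1 library left out, the batch 2 count after pGal was 426 without pGal 2 and 1223 to 1391 otherwise, and after OVA it was 67 without OVA 2, 223 without saline 2, 434 without saline 1 and 919 without OVA 1. In batch 1 the count after pGal was 9 without pGal 2 or pGal 3, 5 to 8 without a saline library and 16 without pGal 1, and the count after OVA was 201 without OVA 2, 312 without OVA 3, 221 to 245 without a saline library and 577 without OVA 1.

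The promoter windows of 4 genes show the sequence at the start of genes that carried the opposite pattern, chosen among those called above 0 for the batch difference because each holds a match to a motif of a T cell transcription factor family. They are RefSeq windows on GRCm38.p6, from 250 bases before to 50 after the gene's start, written 5′ to 3′ on the gene's strand. Capitals mark T-box matches (GGTGTGA) in Itga4 and Samd3, RUNX matches (TGTGGTT) in Klrk1 and Cxcr3, and ETS matches (AGGAAGT) in Samd3 and Cxcr3, each on either strand. Itga4 lies at chr2:79255176-79255475 on the plus strand, Samd3 at chr10:26229457-26229756 on the plus strand, Klrk1 at chr6:129623815-129624114 on the minus strand and Cxcr3 at chrX:101734098-101734397 on the minus strand.
Itga4: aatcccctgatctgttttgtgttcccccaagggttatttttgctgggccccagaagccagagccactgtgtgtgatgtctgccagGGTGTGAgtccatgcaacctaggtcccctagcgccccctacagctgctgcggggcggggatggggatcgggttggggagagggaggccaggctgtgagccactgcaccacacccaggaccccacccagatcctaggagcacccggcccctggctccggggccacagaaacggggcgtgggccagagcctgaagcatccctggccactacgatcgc
Samd3: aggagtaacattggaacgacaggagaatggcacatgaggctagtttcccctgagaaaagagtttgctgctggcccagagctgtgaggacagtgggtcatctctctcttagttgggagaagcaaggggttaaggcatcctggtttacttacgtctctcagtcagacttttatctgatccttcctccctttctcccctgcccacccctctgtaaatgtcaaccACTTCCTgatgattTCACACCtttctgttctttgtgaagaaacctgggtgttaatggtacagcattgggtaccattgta
Klrk1: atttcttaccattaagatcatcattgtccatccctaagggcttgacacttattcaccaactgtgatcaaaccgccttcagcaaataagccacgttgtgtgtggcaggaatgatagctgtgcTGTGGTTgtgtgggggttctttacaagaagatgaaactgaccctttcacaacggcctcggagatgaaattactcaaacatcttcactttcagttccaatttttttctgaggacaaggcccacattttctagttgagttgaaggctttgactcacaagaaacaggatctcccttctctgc
Cxcr3: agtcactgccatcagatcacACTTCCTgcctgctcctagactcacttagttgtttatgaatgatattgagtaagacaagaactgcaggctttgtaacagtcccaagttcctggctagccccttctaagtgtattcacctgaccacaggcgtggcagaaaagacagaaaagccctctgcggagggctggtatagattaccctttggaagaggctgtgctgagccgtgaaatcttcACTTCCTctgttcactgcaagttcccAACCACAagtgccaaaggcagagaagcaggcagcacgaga

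Among the 25 genes above 0 for the batch difference, 21 had a window, and 4 of their 23 windows held the T-box letters (17.4%), in Itga4, Myb, Samd3 and Sema6c. Among the 40 genes below 0, 31 had a window, and 1 of 38 windows held them (2.63%), against 3.48% of the 13591 windows of all tested genes. The RUNX letters were in 3 of 23 windows (13%), 2 of 38 (5.26%) and 3.93% of all. The ETS letters were in 3 of 23 (13%), 4 of 38 (10.5%) and 9.22% of all, and a longer ETS form (ACAGGAAGT, which contains the shorter one) was in 0, 0 and 1.2%. The TCF/LEF letters (CTTTGAT) were in 0 of 23, 0 of 38 and 2.79% of all. These shares are a description of letters in a window. No test was made of them, and the windows were searched after the genes were known.

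In batch 1 the 6 genes that fell after pGal were Klrk1, Itgb1, Tbx21, Itga4, Cxcr3 and Stk39. Klrk1, at chr6:129610323-129623864 on GRCm38, encodes the activating receptor NKG2D, which killer lymphocytes use to sense stressed cells. It was at 67.9, 48.0 and 67.3 CPM in the batch 1 pGal libraries and at 129, 294 and 207 CPM in the batch 1 OVA libraries, with 18.7 to 26.2 CPM after saline. The pGal libraries lay below every OVA library and above every saline library, and the log2 difference between pGal and OVA was -1.78 ± 0.262 (SE, adjusted p = 0.0318). Tbx21, at chr11:97098071-97115331, encodes T-bet, the T-box factor of effector differentiation. It was at 79.1, 69.9 and 84.5 CPM after pGal and at 132, 248 and 206 CPM after OVA, a log2 difference of -1.33 ± 0.180 (adjusted p = 0.0188).

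Itgb1 and Itga4 encode the 2 chains of the integrin VLA-4, which binds VCAM-1 on inflamed vessels. Itgb1 was at 238, 313 and 289 CPM in batch 1 after pGal and at 542, 909 and 1416 CPM after OVA, a log2 difference of -1.77 ± 0.244 (adjusted p = 0.0188). Itga4 was at 159.5, 145 and 141 CPM after pGal and at 260.3, 375 and 325 CPM after OVA, a log2 difference of -1.11 ± 0.135 (adjusted p = 0.0129). Both chains were thus lower in every pGal library than in any OVA library of the batch, as were 7.59% of all genes tested. Cxcr3, the receptor for interferon-induced chemokines, was at 115, 124 and 133 CPM after pGal against 201, 297 and 298 CPM after OVA (log2 difference -1.10 ± 0.175, adjusted p = 0.0454). Stk39, which encodes the kinase SPAK of ion transport control, was at 30.1, 40.3 and 33.4 CPM after pGal against 57.7, 60.5 and 56.7 CPM after OVA (log2 difference -0.75 ± 0.107, adjusted p = 0.0188).

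The same genes stood the other way round in batch 2, by less. Klrk1 was at 261 and 343 CPM in the batch 2 pGal libraries and at 147 and 218 CPM in the batch 2 OVA libraries. The groups did not overlap, but the batch 2 difference of 0.73 ± 0.312 on the log2 scale did not pass (adjusted p = 0.445). The change of sign between batches did pass, at 2.51 ± 0.409 (adjusted p = 0.0199). For Tbx21 the batch 2 values were 221 and 275 CPM after pGal and 190.5 and 193 CPM after OVA, and the batch difference was 1.70 ± 0.282 (adjusted p = 0.0199). Itgb1 was at 1377 and 1402 CPM after pGal and at 1072 and 1292 CPM after OVA in batch 2, and its batch difference was 2.01 ± 0.379 (adjusted p = 0.0350). Cxcr3 was at 345 and 471 CPM after pGal and at 298 and 244 CPM after OVA, with a batch difference of 1.69 ± 0.275 (adjusted p = 0.0199). The pGal libraries thus held the lower levels of these 4 genes in batch 1 and the higher levels in batch 2, with the saline libraries lowest in both.

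**Figure D2:**
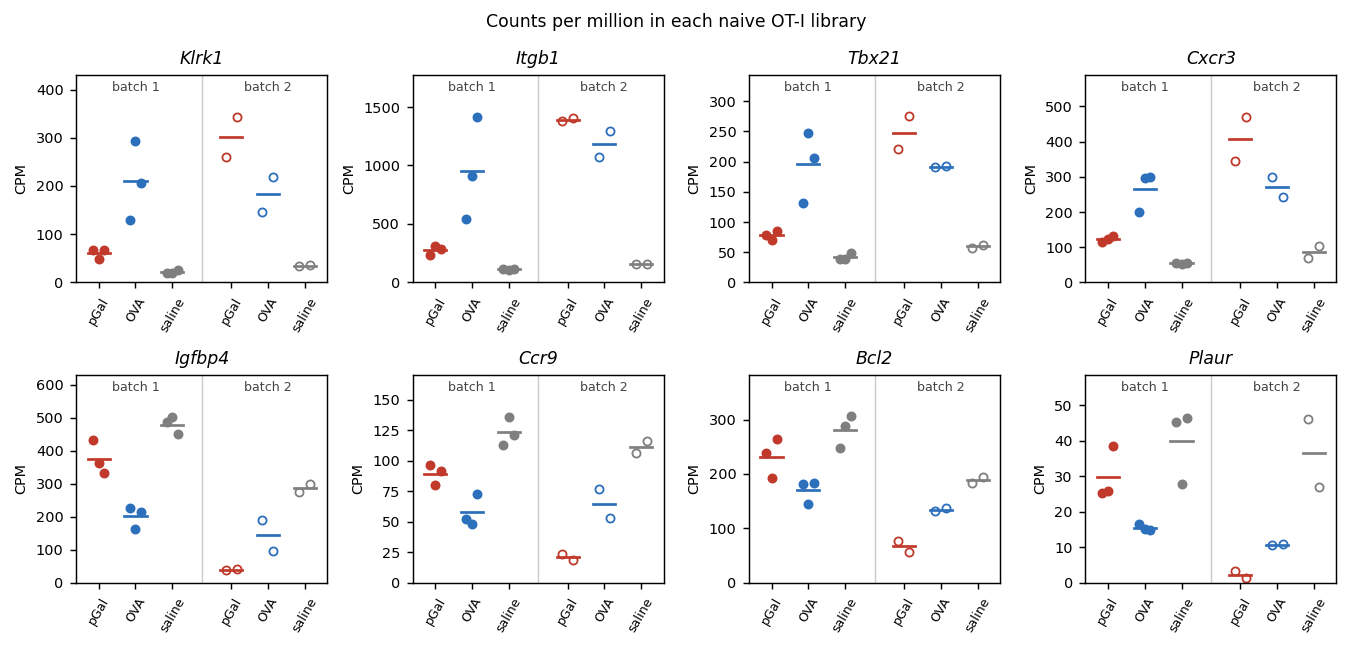
CPM (vertical axis, from 0) of 8 genes in each of 15 naive OT-I libraries, by batch (filled, batch 1; open, batch 2) and treatment; points are libraries and lines are group means. The upper row (Klrk1, Itgb1, Tbx21, Cxcr3) is lower after pGal than OVA in batch 1 and has the higher pGal mean in batch 2; the lower row (Igfbp4, Ccr9, Bcl2, Plaur) is higher after pGal in batch 1 and lower in batch 2.

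Other genes of the batch difference had no call within a batch. Samd3, a gene of cytotoxic lymphocytes, was at 37.5, 24.6 and 29.8 CPM after pGal and at 44.0, 86.0 and 54.3 CPM after OVA in batch 1. In batch 2 it was at 90.5 and 94.6 CPM after pGal and at 42.1 and 46.6 CPM after OVA, and its batch difference was 2.06 ± 0.317 (adjusted p = 0.0172). Ctla2b, which encodes a protease-inhibitor homologue of activated T cells, had a batch difference of 2.17 ± 0.407 (adjusted p = 0.0333), with a log2 difference of -1.38 in batch 1 and 0.79 in batch 2. Myb encodes a transcription factor that restrains terminal differentiation of CD8 T cells. It was at 51.1, 49.6 and 41.6 CPM after pGal against 75.9, 78.6 and 72.3 CPM after OVA in batch 1, and at 113 and 109 CPM after pGal against 52.6 and 78.4 CPM after OVA in batch 2, a batch difference of 1.43 ± 0.265 (adjusted p = 0.0317). Slamf6, a receptor of the SLAM family, and Gpr183, an oxysterol receptor that guides cells within lymphoid tissue, had batch differences of 0.99 ± 0.139 (adjusted p = 0.0133) and 0.95 ± 0.183 (adjusted p = 0.0362). Both lay lower in all 3 pGal libraries than in any OVA library of batch 1 and higher in both pGal libraries of batch 2. Taken alone, 7.59% of all genes tested separated as lower in batch 1 and 18.9% as higher in batch 2.

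In batch 2, of the 22 genes that fell after pGal, all 22 had a log2 difference above 0 in batch 1. Igfbp4, at chr11:99041244-99054392, encodes an insulin-like growth factor binding protein and is a transcript of naive CD8 T cells in mice. It was at 39.7 and 40.5 CPM in the batch 2 pGal libraries, at 189 and 97.6 CPM in the batch 2 OVA libraries and at 274 and 299 CPM after saline. The log2 difference between pGal and OVA was -1.84 ± 0.241 (adjusted p = 0.0115). In batch 1 the order was reversed, with 432, 364 and 332 CPM after pGal and 228, 164 and 215 CPM after OVA, and the batch difference was -2.73 ± 0.307 (adjusted p = 0.00287).

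Ccr9, the receptor for the gut chemokine CCL25 and a gene of naive CD8 T cells, was at 23.2 and 18.8 CPM after pGal and at 76.5 and 53.2 CPM after OVA in batch 2 (log2 difference -1.62 ± 0.208, adjusted p = 0.0115). In batch 1 it was at 96.5, 80.4 and 91.1 CPM after pGal and at 52.6, 48.0 and 72.9 CPM after OVA, and its batch difference was -2.25 ± 0.265 (adjusted p = 0.00287). Bcl2 encodes the survival factor that interleukin 7 sustains in resting T cells. It was at 76.7 and 57.4 CPM after pGal and at 132 and 137 CPM after OVA in batch 2 (SE of the log2 difference 0.172, adjusted p = 0.0438), against 238, 193 and 265 CPM after pGal and 182, 144 and 183 CPM after OVA in batch 1. For all 3 genes the saline libraries held the highest mean in each batch.

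Plaur encodes the urokinase receptor. It was at 3.35 and 1.28 CPM after pGal and at 10.6 and 10.8 CPM after OVA in batch 2 (log2 difference -2.19 ± 0.392, adjusted p = 0.0444), and at 25.2, 25.8 and 38.5 CPM after pGal and 16.4, 15.2 and 14.9 CPM after OVA in batch 1. Lrrc75b, named by its leucine-rich repeats, was at 2.19 and 2.61 CPM after pGal and at 12.4 and 7.67 CPM after OVA in batch 2 (log2 difference -2.06 ± 0.290, adjusted p = 0.0135). Among genes that reached 10 CPM in a group it had the lowest batch difference, -3.16 ± 0.368 (adjusted p = 0.00287), with Plaur next at -3.13 ± 0.490 (adjusted p = 0.0173). Pmepa1, which encodes a membrane protein that TGF-beta induces and that dampens TGF-beta signalling, was at 21.5, 17.9 and 16.3 CPM after pGal against 8.44, 8.71 and 8.73 CPM after OVA in batch 1. In batch 2 it was at 3.95 and 1.51 CPM after pGal against 5.95 and 7.19 CPM after OVA, and its batch difference was -2.36 ± 0.413 (adjusted p = 0.0271).

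Among the other genes that fell in batch 2 were a subunit of the phagocyte oxidase, a corepressor and a cytokine receptor. Ncf1, the oxidase subunit, was at 16.5 and 13.4 CPM after pGal and at 38.2 and 54.0 CPM after OVA (log2 difference -1.62 ± 0.271, adjusted p = 0.0438). Phagocytes and B cells also express it, and the higher OVA library, batch 2 OVA 2, is the one with 2197 CPM of summed B cell markers, whose part in the difference was not tested. Tle1, a corepressor that partners TCF factors, was at 10.2 and 7.46 CPM after pGal and at 27.6 and 24.0 CPM after OVA (log2 difference -1.54 ± 0.210, adjusted p = 0.0115). Il18r1, the interleukin 18 receptor chain, was at 23.3 and 18.7 CPM after pGal and at 48.2 and 35.3 CPM after OVA (log2 difference -0.99 ± 0.169, adjusted p = 0.0438). Cxxc5, a zinc finger protein, was at 10.2 and 10.4 CPM after pGal and at 26.9 and 22.5 CPM after OVA (log2 difference -1.26 ± 0.166, adjusted p = 0.0115). Each of these 4 genes, chosen among those called lower, was lower in both pGal libraries than in either OVA library, as were 17.5% of all genes tested.

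Of the 6 genes that rose in batch 2, 3 had more than 10 CPM. Gpr174, a lysophosphatidylserine receptor of lymphocytes, was at 115 and 113 CPM after pGal and at 60.6 and 68.8 CPM after OVA (log2 difference 0.82 ± 0.153, adjusted p = 0.0483). Frmd4b was at 14.6 and 16.9 CPM after pGal and at 5.95 and 6.65 CPM after OVA (log2 difference 1.32 ± 0.213, adjusted p = 0.0430), and Lrrc40 was at 21.5 and 19.7 CPM after pGal against 10.8 and 9.43 CPM after OVA (log2 difference 1.02 ± 0.191, adjusted p = 0.0483). The other 3, Rec8, Angptl2 and Sema6c, averaged under 2 CPM in both groups. Mr1, which encodes a molecule that presents vitamin B metabolites, followed without passing, at 23.1 and 25.4 CPM after pGal and 13.6 and 9.89 CPM after OVA (log2 difference 1.04 ± 0.207, adjusted p = 0.0731).

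These within-batch calls rest on few libraries. In batch 1, leaving out pGal 3 or OVA 2 left 0 called genes, leaving out pGal 2 left 1, leaving out pGal 1 or OVA 3 left 2, and leaving out OVA 1, a library with Cd4 transcripts, left 41. In batch 2, leaving out pGal 2 left 0, pGal 1 left 9, OVA 2 left 16 and OVA 1 left 41. For the batch difference the count was 7 without batch 2 pGal 2, 13 without batch 1 OVA 2, 20, 27 and 29 without batch 1 pGal 1, 2 and 3, 31 without batch 1 OVA 3, 33 without batch 2 pGal 1, 44 and 88 without batch 2 OVA 1 and 2, and 221 without batch 1 OVA 1. Without both Cd4-bearing libraries, 18 genes were called in batch 1, 10 in batch 2 and 100 for the difference, of which 6, 10 and 45 were also called with them. Without batch 2 OVA 2 and batch 2 saline 1, the libraries with the most B cell transcripts, the counts were 10, 37 and 142, of which 6, 13 and 52 were also called with them.

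Of the 28 gene lists, 19 had medians of opposite sign in the 2 batches and 9 had medians of the same sign. The 60.8% of all genes tested that differed in sign is a share of single genes and cannot serve as background for medians of lists. Some signs rest on medians near 0, such as -0.09 and 0.01 for cytokine receptors and feedback. For T cell receptor early response genes the medians were 0.03 and -0.05. Of 42 proliferation genes, 0 were called between pGal and OVA in either batch. Their median log2 difference was -0.70 in batch 1, where 41 were below 0, and 0.25 in batch 2, where 30 were above 0, beside medians of -0.00 and -0.01 over all genes tested. Mki67, the classic marker of cycling cells, was at 16.9, 12.9 and 20.8 CPM after pGal and at 27.3, 59.5 and 42.8 CPM after OVA in batch 1, and at 67.5 and 76.8 CPM after pGal against 46.2 and 66.6 CPM after OVA in batch 2. Against saline the medians of the 42 genes were 0.87 after pGal and 1.63 after OVA in batch 1, and 1.36 after pGal and 1.02 after OVA in batch 2. Only the cyclin gene Ccnd2 of the list was called for the batch difference, at -0.81 ± 0.153 (adjusted p = 0.0333), opposite in sign to the list's median. It was at 785, 759.8 and 719 CPM after pGal and 577, 535 and 617 CPM after OVA in batch 1, and at 371 and 437 CPM after pGal and 504 and 580.0 CPM after OVA in batch 2.

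**Figure D3:**
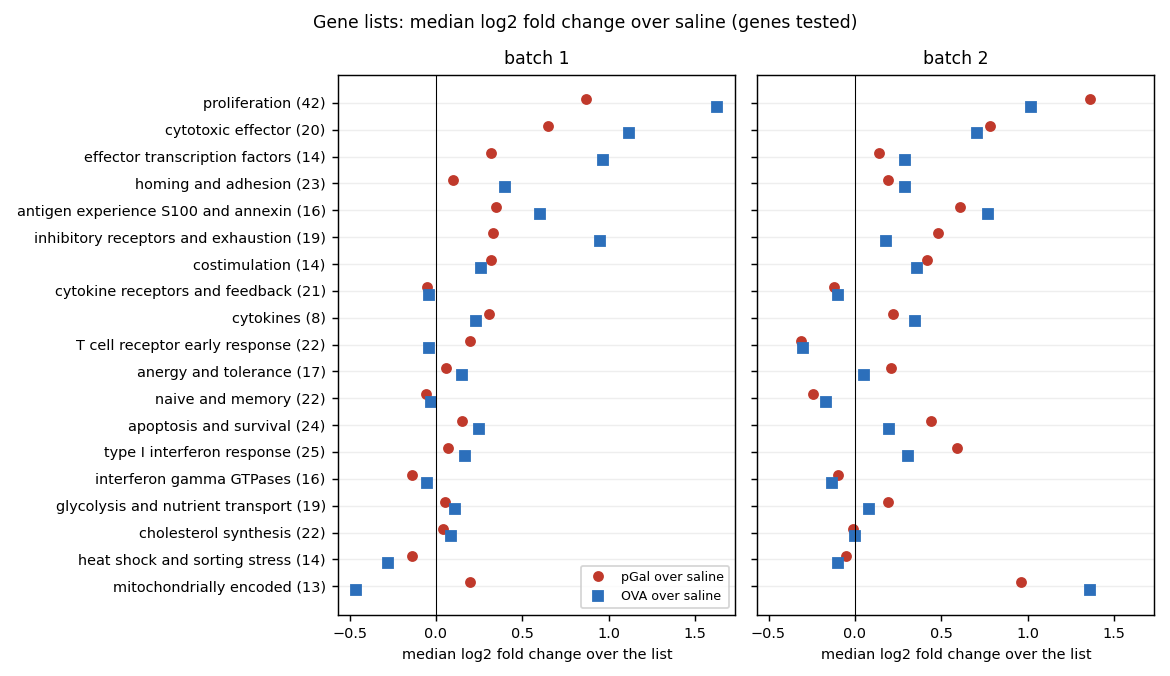
Median log2 fold change over saline (horizontal axis) of 19 gene lists, with the number of genes tested in parentheses, for pGal (red circles) and OVA (blue squares) in batch 1 (left) and batch 2 (right). The proliferation median is 0.87 after pGal and 1.63 after OVA in batch 1, and 1.36 after pGal and 1.02 after OVA in batch 2; the 2 points of a list share their saline libraries.

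Of 20 cytotoxic effector genes, 1 (Klrk1) was called lower in batch 1 and 0 were called in batch 2. The median was -0.59 in batch 1 and 0.24 in batch 2. In batch 1, 8 of the 20 were lower in every pGal library than in any OVA library, and 1 was higher, where 7.59% and 6.70% of all tested genes separated in those directions. In batch 2 it was 1 lower and 5 higher, where 17.5% and 18.9% of all tested genes separated. Gzmb, granzyme B, was at 13.4, 11.2 and 22.0 CPM after pGal and at 46.4, 138 and 41.9 CPM after OVA in batch 1, and at 20.2 and 57.1 CPM after pGal against 33.3 and 53.4 CPM after OVA in batch 2. Its log2 difference was -1.50 over both batches (95% interval -2.54 to -0.47) and did not pass (adjusted p = 1.00). Gzma, granzyme A, was at 21.8, 14.4 and 22.0 CPM after pGal and at 46.5, 186 and 38.2 CPM after OVA in batch 1, and at 23.6 and 71.4 CPM after pGal against 19.2 and 58.9 CPM after OVA in batch 2. Gzmk, granzyme K, was at 4.16 to 6.37 CPM after pGal and at 12.5 to 55.9 CPM after OVA in batch 1, and at 24.8 and 47.3 CPM after pGal against 12.6 and 31.4 CPM after OVA in batch 2. Ifng, the gene of interferon gamma, was at 2.71 to 7.39 CPM after pGal against 6.80 to 12.6 CPM after OVA in batch 1, with overlap, and at 39.7 and 20.8 CPM after pGal against 10.4 and 26.6 CPM after OVA in batch 2.

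Of 14 effector transcription factors, Tbx21 alone was called in batch 1 and 0 were called in batch 2, with medians of -0.49 and 0.02. Zbtb32, a repressor that limits expansion of activated lymphocytes, was at 9.26, 11.7 and 18.2 CPM after pGal and at 25.9, 39.7 and 57.8 CPM after OVA in batch 1, and at 45.6 and 52.2 CPM after pGal against 59.4 and 44.0 CPM after OVA in batch 2. Prdm1, which encodes Blimp-1, was at 1.38 to 1.90 CPM after pGal and at 3.07 to 8.16 CPM after OVA in batch 1, and at 1.88 and 6.45 CPM after pGal against 4.85 and 4.71 CPM after OVA in batch 2. Of 23 homing and adhesion genes, 3 fell in batch 1 (Itgb1, Itga4 and Cxcr3), 1 fell in batch 2 (Ccr9), and 5 were called for the batch difference, with medians of -0.29 and 0.20. In all, 19 of the 23 had opposite signs in the 2 batches, and 8398 of the 13816 genes tested did.

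Inhibitory receptors showed no called difference in either batch among 19 genes tested, with medians of -0.15 in batch 1 and 0.20 in batch 2. Pdcd1, the gene of PD-1, was at 6.59, 21.0 and 8.17 CPM after pGal and at 19.7, 21.3 and 35.4 CPM after OVA in batch 1, and at 23.7 and 35.5 CPM after pGal against 35.0 and 36.7 CPM after OVA in batch 2. The batch 1 pGal library at 21.0 CPM is pGal 2, which carries Cd4 transcripts. Ctla4 was at 26.7, 71.1 and 40.4 CPM after pGal and at 45.8, 46.9 and 92.3 CPM after OVA in batch 1, and at 89.9 and 64.7 CPM after pGal against 46.6 and 29.0 CPM after OVA in batch 2. Lag3 was at 2.47 to 4.20 CPM after pGal and at 5.03 to 8.13 CPM after OVA in batch 1, without overlap, and at 7.45 and 7.04 CPM after pGal against 7.62 and 5.58 CPM after OVA in batch 2. Over both batches the log2 differences were -0.74 for Pdcd1 (95% interval -1.38 to -0.10), 0.15 for Ctla4 (-0.55 to 0.86) and -0.53 for Lag3 (-1.11 to 0.05), and none passed (adjusted p = 1.00 each). Tox, a factor of exhausted T cells, was at 92.8 to 112 CPM after pGal and 89.5 to 108 CPM after OVA in batch 1, and at 120.0 and 125 CPM after pGal against 99.0 and 109 CPM after OVA in batch 2. Its 95% interval over both batches was -0.12 to 0.30. Havcr2 and Tigit were low, at 0.785 to 3.36 CPM and 3.45 to 8.47 CPM after pGal and at 1.21 to 6.30 CPM and 3.50 to 7.95 CPM after OVA.

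Among genes of resting and memory cells, some stayed close between the groups and others did not. Tcf7, which encodes TCF-1, was at 1625 to 1977 CPM after pGal and 1388 to 1844 CPM after OVA, with a log2 difference over both batches of 0.04 (95% interval -0.13 to 0.22). Il7r, the interleukin 7 receptor, was at 416, 255 and 315 CPM after pGal and at 184, 245 and 254 CPM after OVA in batch 1, and at 236 and 169 CPM after pGal against 303 and 273 CPM after OVA in batch 2. Neither batch nor their difference passed for Il7r (adjusted p = 0.103 for the difference). Of the 22 genes of this list, 2 were called lower in batch 2 (Igfbp4 and Bcl2) and 0 were called in batch 1, with medians of 0.08 in batch 1 and -0.09 in batch 2. Cd44, an adhesion receptor of antigen-experienced cells, averaged 84.3 ± 18.2 CPM after pGal and 113 ± 15.7 CPM after OVA in batch 1 (SD, n = 3 each), and was at 182 and 179.6 CPM after pGal against 103 and 134 CPM after OVA in batch 2. Ccr7, a chemokine receptor for entry into lymph nodes, was at 620.2, 989, 900.4, 735 and 654 CPM after pGal and at 744, 526, 712, 919 and 630.4 CPM after OVA.

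The remaining lists held few calls. Among lists with medians of the same sign in both batches were the 22 cholesterol synthesis genes (-0.08 in batch 1 and -0.09 in batch 2), the 16 S100, annexin and other antigen-experience genes (-0.28 and -0.10) and the 18 myeloid markers (-0.24 and -0.33). Of 14 costimulation genes, Slamf6 alone was called, for the batch difference, and of 8 cytokine genes and 16 S100, annexin and other antigen-experience genes, 0 were called in any of these comparisons. The 9 marker lists (T cell identity, CD8 and CD4 lineage, regulatory T cell, NK cell, B cell, myeloid, red cell with platelet, and stroma) held 0 called genes, and the 16 B cell markers had medians of 0.40 in batch 1 and -2.60 in batch 2. Of 24 apoptosis and survival genes, Bcl2 alone fell in batch 2, and of 21 cytokine receptor and feedback genes, Il18r1 alone fell there. Il2rb, the shared chain for interleukins 2 and 15, was at 784, 701 and 674 CPM after pGal and at 733, 1421 and 1233 CPM after OVA in batch 1, and at 1332 and 1428 CPM after pGal against 1172 and 1149 CPM after OVA in batch 2. Among 22 T cell receptor early response genes, 17 anergy and tolerance genes, 25 type I interferon response genes, 16 interferon gamma GTPases, 19 glycolysis and nutrient transport genes, 22 cholesterol synthesis genes and 14 heat shock and sorting stress genes, 0 were called in either batch or for the batch difference. Of all genes tested, 0.0434%, 0.203% and 0.470% were called there. The type I interferon median was -0.11 in batch 1, with 19 genes below 0, and 0.20 in batch 2, with 22 above 0. Nr4a1, an immediate target of T cell receptor signalling, was at 92.2 to 154 CPM after pGal and 86.2 to 147 CPM after OVA, with overlap in both batches. Cd69, an early activation marker, was at 251 to 384 CPM after pGal and 258 to 279 CPM after OVA. The 13 mitochondrially encoded genes, which often move with RNA quality, also turned with the batch: their median log2 difference was 0.69 in batch 1, with all 13 above 0, and -0.37 in batch 2, with all 13 below 0, and 0 were called. They summed to 16464, 12677 and 8305 CPM after pGal and 8334, 9496 and 5579 CPM after OVA in batch 1, and to 9305 and 20146 CPM after pGal against 17380 and 16991 CPM after OVA in batch 2. Their part in the batch difference was not tested. Depth was examined only by thinning, with which 75 genes were called for that difference, against 65 at full depth.

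While 60.8% of the genes tested differed in sign between the batches, others kept one direction, and none of these passed over all genes. Those named below were chosen by their p over both batches, a choice that favours the same direction in both. Cx3cr1, at chr9:119901616-120069879, encodes the fractalkine receptor of cytotoxic effector and tissue-patrolling cells. It was at 5.15, 4.16, 5.97, 6.12 and 6.98 CPM in the 5 pGal libraries and at 8.35, 15.8, 11.1, 11.1 and 28.2 CPM in the 5 OVA libraries. Every pGal library lay below every OVA library, as at 25 of the 13816 genes tested (0.181%), while 15 genes (0.109%) lay the other way. The log2 difference was -1.35 (95% interval -1.86 to -0.84), with -1.20 in batch 1 and -1.59 in batch 2, and it had the smallest adjusted p of the comparison, 0.531. Saline libraries were at 6.50 to 7.92 CPM in batch 1 and 12.3 and 15.3 CPM in batch 2, so the pGal libraries lay below saline as well in each batch. DESeq2 called this gene, with a log2 difference of -1.34, and it was the 1 gene that method called. The OVA library at 28.2 CPM is batch 2 OVA 2. Its summed B cell (2197 CPM), myeloid (319 CPM) and NK cell markers (50.5 CPM) were the highest of the OVA libraries. The edgeR log2 difference of Cx3cr1 was -1.13 without that library and -1.10 without it and batch 2 saline 1. The part of other cells in the difference was not tested.

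**Figure D4:**
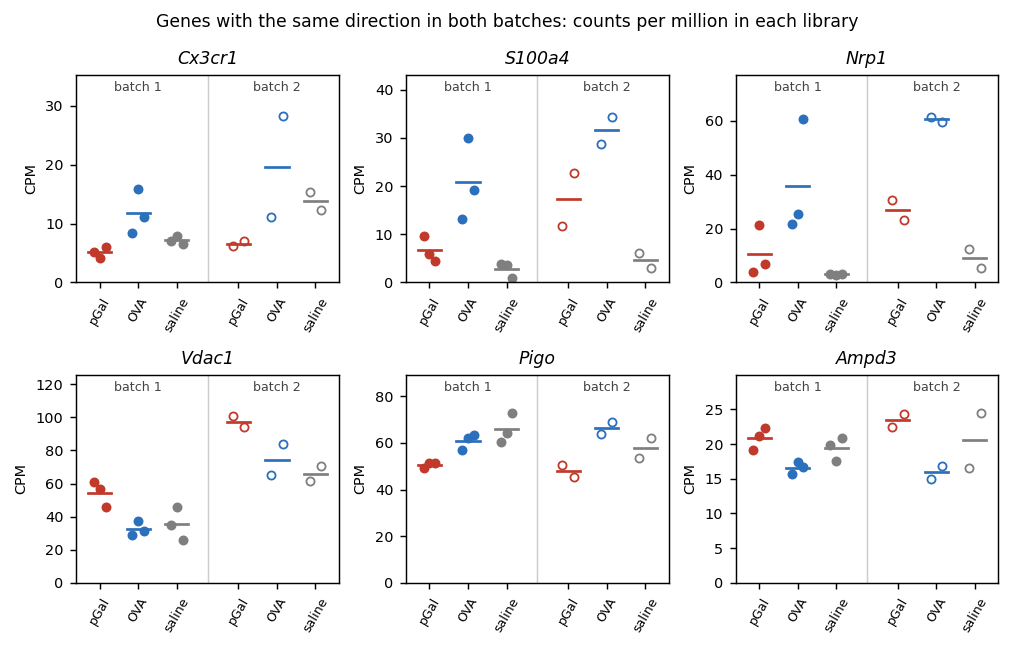
CPM (vertical axis, from 0) in each of 15 naive OT-I libraries of 6 genes with the same direction of pGal against OVA in both batches; points are libraries and lines are group means. Cx3cr1 is at 4.16 to 6.98 CPM after pGal and 8.35 to 28.2 CPM after OVA, and Ampd3 at 19.1 to 24.3 CPM after pGal and 15.0 to 17.4 CPM after OVA.

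S100a4, a calcium-binding protein of antigen-experienced T cells, was at 9.70, 5.97, 4.41, 11.8 and 22.7 CPM after pGal and at 13.2, 29.9, 19.2, 28.8 and 34.3 CPM after OVA. Within each batch the pGal libraries lay below the OVA libraries, and the log2 difference over both batches was -1.32 (95% interval -2.08 to -0.55, adjusted p = 1.00). S100a6, of the same family, was at 36.9 to 46.4 CPM after pGal and 78.6 to 174 CPM after OVA in batch 1, but at 63.7 and 93.9 CPM after pGal against 63.7 and 105 CPM after OVA in batch 2. Nrp1 encodes neuropilin-1, a coreceptor that tolerized T cells and regulatory T cells can carry. It was at 4.02, 21.5, 6.68, 30.5 and 23.1 CPM after pGal and at 21.7, 25.6, 60.6, 61.4 and 59.7 CPM after OVA, with saline at 2.83 to 12.6 CPM. The pGal library at 21.5 CPM is the batch 1 library with Cd4 transcripts. The log2 difference was -1.53 (95% interval -2.41 to -0.66, adjusted p = 1.00).

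Pigo, an enzyme of glycosylphosphatidylinositol anchor synthesis, and Llgl2, a cell polarity protein, had small and even differences. Pigo was at 49.2, 51.5, 51.2, 50.4 and 45.6 CPM after pGal and at 56.9, 62.2, 63.4, 63.9 and 69.1 CPM after OVA (log2 difference -0.35, 95% interval -0.53 to -0.17, adjusted p = 1.00). Llgl2 was at 35.9 to 42.4 CPM after pGal and 42.7 to 58.3 CPM after OVA (log2 difference -0.37, 95% interval -0.56 to -0.17, adjusted p = 1.00). Neither gene overlapped between the 2 groups. Bspry was at 2.13 to 4.24 CPM after pGal against 5.28 to 16.2 CPM after OVA in batch 1, and Cdc45, a replication factor, at 8.99 to 16.7 CPM after pGal against 12.8 to 30.3 CPM after OVA in that batch. In batch 2 Bspry was at 9.67 and 17.6 CPM after pGal against 17.6 and 17.7 CPM after OVA, and Cdc45 at 12.7 and 12.4 CPM after pGal against 23.9 and 17.5 CPM after OVA. Srebf2, the master factor of cholesterol synthesis, was at 198 to 229 CPM after pGal and 234 to 278 CPM after OVA, a log2 difference of -0.22 ± 0.0740 (adjusted p = 1.00).

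On the higher side after pGal, Vdac1, the main channel of the outer mitochondrial membrane, was at 61.1, 56.8, 45.8, 101 and 94.0 CPM after pGal and at 28.6, 37.3, 31.4, 65.0 and 83.7 CPM after OVA. The groups were apart within each batch, and the log2 difference was 0.61 (95% interval 0.30 to 0.91, adjusted p = 1.00). Ampd3, an AMP deaminase of purine metabolism, was at 19.1, 21.1, 22.3, 22.5 and 24.3 CPM after pGal and at 15.7, 17.4, 16.7, 15.0 and 16.9 CPM after OVA (log2 difference 0.42, 95% interval 0.17 to 0.66, adjusted p = 1.00). Its groups did not overlap. Hdgfl3 was at 50.6 to 53.8 CPM after pGal and 39.5 to 47.7 CPM after OVA (log2 difference 0.28 ± 0.0818), U2af1, a splicing factor, differed by 0.41 ± 0.114, and Ipo4, a nuclear import receptor, by 0.33 ± 0.0916, with adjusted p = 1.00 for each.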

How the data were processed

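The authors deposited estimated counts per protein-coding gene (21900 genes, whole numbers), for which the submitters' processing notes name bcl2fastq, kallisto 0.46.1 and GRCm38. The summing of transcripts to genes and the rounding are not described in those notes. SmartSeq v4 complementary DNA carries no molecular identifiers, so depth (33.5 to 68.2 M counts in the 15 libraries) does not give the precision, and the spread between libraries was used. Pools of mice are the replicates. From these counts, genes were filtered with filterByExpr over the 3 treatments (13816 kept), normalized by TMM, and tested by edgeR 4.0.16 (R 4.3.3) with quasi-likelihood fits under robust shrinkage. An additive fit of batch and treatment (11 residual degrees of freedom) gave the comparison over both batches. A fit of the 6 batch and treatment groups (9 residual degrees of freedom) gave each batch and the difference between batches, so all 15 libraries, saline included, set the spread. Calls are at a Benjamini-Hochberg adjusted p under 0.05 over all genes tested, and values after ± are standard errors unless named otherwise. The comparisons over both batches, in batch 1 and in batch 2 were tested on simulated counts without a batch effect. Of 100 genes changed 2-fold, 98.0%, 91.0% and 86.0% were recovered, with 11, 5 and 10 false calls. The test of the batch difference was not simulated. No library pair was as alike as sampling noise.

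Named genes are the 6 highest and 6 lowest over both batches and the 4 and 4 of each other comparison, called first and then by smallest p, at 10 CPM or more. To these come a panel of 19 genes and, from each of 28 lists, up to 2 genes at 5 CPM or more; the text gives a part. Cxcr3, Stk39, Ccr9, Bcl2, Tle1, Cxxc5, Il18r1, Itga4 for the batch difference, Gpr183, Slamf6, Myb, Ccnd2, Rec8, Angptl2 and Sema6c were called outside that rule and chosen after their values were seen, as were the promoter windows. Members and lists were chosen with earlier results of these data known. Mx1 and Aldoa were the 2 list genes without a row. GENCODE M21 gave gene coordinates (21883 of 21900 identifiers matched) and RefSeq the windows. Alternatives were DESeq2 1.42.0, limma voom 3.58.1, RLE factors, no filter, other sets of libraries, a replicate block, and thinning. Therapeutic and OT-II libraries were not used here.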

Additional observations from a re-analysis of the deposited data

Results flagged for a closer look

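Among 134 groups of 5 libraries examined, 13 held 1 library far from the other 4. The cutoff flags about 1 group in 20 by chance where the 5 values are independent and of 1 level. These groups pool 2 batches and share the same libraries, so that rate cannot serve as their background. Batch 2 pGal 2 was the highest pGal library for Gzmb (57.1 CPM), Gzma (71.4 CPM), Prdm1 (6.45 CPM) and Tigit (8.47 CPM). Batch 1 pGal 2, a library with Cd4 transcripts, was the highest for Tcf7 (1977 CPM). Batch 1 OVA 2 was the highest OVA library for Gzmb (138 CPM), Gzma (186 CPM) and Samd3 (86.0 CPM), and batch 1 OVA 3 for Ctla4 (92.3 CPM). Batch 1 OVA 1, the other library with Cd4 transcripts, was the lowest OVA library for Cd8a (762 CPM) and Bspry (5.28 CPM). Batch 2 OVA 1 was the highest OVA library for Lrrc75b (12.4 CPM) and the lowest for Myb (52.6 CPM).

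The difference of pGal against OVA itself differed between the batches for 19 named genes. On the log2 scale, batch 2 minus batch 1, it was above 0 for Klrk1 (2.51), Ctla2b (2.17), Samd3 (2.06), Itgb1 (2.01), Tbx21 (1.70), Cxcr3 (1.69), Myb (1.43), Itga4 (1.31), Slamf6 (0.99) and Gpr183 (0.95). It was below 0 for Lrrc75b (-3.16), Plaur (-3.13), Igfbp4 (-2.73), Pmepa1 (-2.36), Ccr9 (-2.25), Tle1 (-1.80), Bcl2 (-1.45), Il18r1 (-1.15) and Ccnd2 (-0.81). Depth by treatment turned with the batch, and so did the median of the mitochondrially encoded genes. The summed CPM of those genes overlapped between pGal and OVA libraries in each batch. Apart from the thinning for depth, the part of these and of the batch in this difference was not tested.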

How the results depend on the processing

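Over both batches, 0 genes were called under every alternative except DESeq2, with 1; the replicate block also gave 0, and leaving out 1 library gave 0 to 0. In batch 1 (6 genes), no filter gave 3, leaving out the Cd4-bearing libraries 18, leaving out the B cell-rich libraries 10, DESeq2 131, only that batch's pGal and OVA libraries 0, the same with a replicate block 1 (Zbtb32), and leaving out 1 library 0 to 41. In batch 2 (28 genes), leaving out the Cd4-bearing libraries gave 10, DESeq2 221, limma voom 0, only that batch's libraries 0 without and 0 with the replicate block, thinning 17, and leaving out 1 library 0 to 41. For the batch difference (65 genes), leaving out the Cd4-bearing libraries gave 100, leaving out the B cell-rich ones 142, DESeq2 504, limma voom 42, and leaving out 1 library 7 to 221. Against saline over both batches, pGal (463 genes) gave 273 without the Cd4-bearing libraries, 209 without the B cell-rich ones, 1123 with DESeq2 and 102 to 506 leaving out 1 library, and OVA (743 genes) gave 489 without the B cell-rich libraries, 1355 with DESeq2 and 309 to 887 leaving out 1 library. Against saline within batches, batch 1 pGal (20 genes) gave 122 with DESeq2, 6 with limma voom and 5 to 16 leaving out 1 library, and batch 1 OVA (523 genes) gave 1039 with DESeq2 and 201 to 577 leaving out 1 library. Batch 2 pGal (1827 genes) gave 2757 with DESeq2 and 426 to 1391 leaving out 1 library, and batch 2 OVA (540 genes) gave 359 without the Cd4-bearing libraries, 193 without the B cell-rich ones, 1414 with DESeq2 and 67 to 919 leaving out 1 library. The causes were not tested, beyond the smaller number of libraries where some were left out.

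Same-numbered pGal and OVA libraries were not treated as pairs in the main fits. Their deviations from the group means correlated at 0.02, -0.35 and 0.16 in batch 1 and at 0.03 in batch 2. With 2 libraries per group, both numbers of batch 2 give the same value by construction. So few values cannot show whether the libraries were paired. The 1628 recomputed values of named genes include genes not called in the main fits, among them every gene named over both batches. Such genes had no call to lose, so the counts below are not a rate of calls kept. Of the 1628 values, 1385 kept their direction and side of the threshold. A further 215 kept the direction and lost the call, and 9 gained one. Another 19 turned sign, all in the comparison over both batches. With 1 library left out these ran from -0.09 to 0.15 for Cd44, -0.05 to 0.26 for Il7r, -0.03 to 0.22 for Nr4a1, -0.35 to 0.16 for Tigit, -0.06 to 0.46 for Ctla4 and -0.01 to 0.08 for Tcf7. Cd44 was also at -0.01 without the Cd4-bearing libraries, -0.00 with limma voom and -0.01 with only the pGal and OVA libraries, Ifng at 0.01 with limma voom and 0.16 with no batch term, and Ctla4 at -0.08 and Tcf7 at -0.00 without the B cell-rich libraries. A call lost with a library left out is not by itself a weaker effect, and the estimates moved either way. Without batch 1 pGal 1, Stk39 and Klrk1 lost their batch 1 calls. Stk39 was then at -0.66 against -0.75 with all libraries, and Klrk1 at -1.86 against -1.78.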
